A study of Mus musculus with 8 samples.

Results

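Interleukins are secreted proteins through which blood cells, epithelium and connective tissue signal to each other, and each acts through a receptor built from a ligand-binding chain and 1 or more signalling chains, several of which are shared between interleukins. The signal can be checked outside the cell by an antagonist that occupies the receptor, by a binding protein, or by a decoy receptor that takes up the ligand without passing it on. In the lung the interleukin 1, 4, 6 and 17 systems are known for their part in inflammation and repair, and glucocorticoids are known to restrain many interleukin genes. The members of this set were the probe sets of the array whose single gene symbol starts with Il followed directly by a number. They were 53 of 12422 probe sets and stood for 45 genes, 19 ligands, 21 receptor chains and 5 inhibitors. Another 2 probe sets that fit the symbol, one each for Il10 and Il4, are control probe sets of the array and were left out.

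RNA of whole lung from young mice had been measured on 8 Affymetrix arrays, 2 in each of 4 groups. Per the labels, mice aged 3 days were given oil or retinoic acid, and on day 4 some of each received saline and the others dexamethasone, a synthetic glucocorticoid. The group Dex had oil and dexamethasone, RA had retinoic acid and saline, and RA-Dex had retinoic acid and dexamethasone. Dil is defined by no label and was taken as the remaining arm, oil and saline. By its title, the study concerned how septation, the subdivision of air sacs after birth, is inhibited and how it is protected. No label used here gives the strain, the doses, the time of collection or whether replicates a and b are separate animals, so every p-value reflects the spread among these arrays alone, which could be technical.

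The median signal of an array lay between 316 and 342, and 74.3% to 76.7% of all probe sets were above 85.3, the pooled 25th percentile of the series, which served as the floor. In whole tissue, fewer cells of a type and less RNA per cell cannot be told apart. Lung markers were as the label says: 7 of 12 listed epithelial genes had a probe set and were above the floor on all 8 arrays, among them surfactant protein C, Sftpc, at 61592 to 84336. The summed signals of the epithelial, endothelial and mesenchymal markers overlapped between the 4 dexamethasone arrays and the 4 others, as did those of the erythroid and thymus markers. A sum is set mostly by its brightest genes, and single genes passed in limma at adjusted p under 0.05. With dexamethasone Kdr fell, 1 of 8 tested endothelial genes (log2 fold change -0.86). Of 10 tested mesenchymal genes Tagln fell (-0.48) and Pdgfra rose (0.87), and of 6 tested epithelial genes 0 passed. Of all tested probe sets 4.26% passed as rises and 3.57% as falls. Summed signals of 10 leukocyte genes did not overlap, at 7339.7 to 8993 with dexamethasone and 12266 to 14510 without. The same held for macrophage markers (18230 to 20040 against 22550 to 25542), B cell markers (2813 to 4122 against 5259 to 5722) and T and NK cell markers (807 to 1097 against 1122 to 1466, with Cd3e, Cd2 and Cd8a at or under the floor on every array). The sum of mast cell and basophil markers was 7214 to 7400.4 with dexamethasone and 6319 to 6914 without, but of its 5 tested genes only Gata2 passed as a rise and the median was -0.18, and the tryptase gene Tpsab1 was at or under the floor on every array. The Dil arrays had the highest sums of skeletal muscle markers, 8362 and 8892 against 4574 to 6461 elsewhere, and squamous epithelium markers stood at 33541 and 38431 there against 23762 to 34259.

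Most interleukin ligands were dim in this tissue, and most receptor chains were not. On average over the arrays, 55.0% ± 2.56 (SD, n = 8) of the 53 members were above the floor, against 75.1% of all probe sets. By group the share was 54.7% ± 2.67 (SD, n = 2) in Dil, 53.8% ± 1.33 in Dex, 57.5% ± 4.0 in RA and 53.8% ± 1.33 in RA-Dex, so the groups differed by no more than the spread between replicates. Of the ligand probe sets, 31.8% to 45.5% were above the floor on an array, and of the receptor probe sets 68% to 76%. The mean log2 signal over all members was 7.42 ± 0.055 in Dil (SD, n = 2), 7.48 ± 0.010 in Dex, 7.45 ± 0.038 in RA and 7.51 ± 0.048 in RA-Dex, where all probe sets gave 8.58, 8.56, 8.57 and 8.55. These shares and means describe the probe sets and were not tested.

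**Figure D1:**
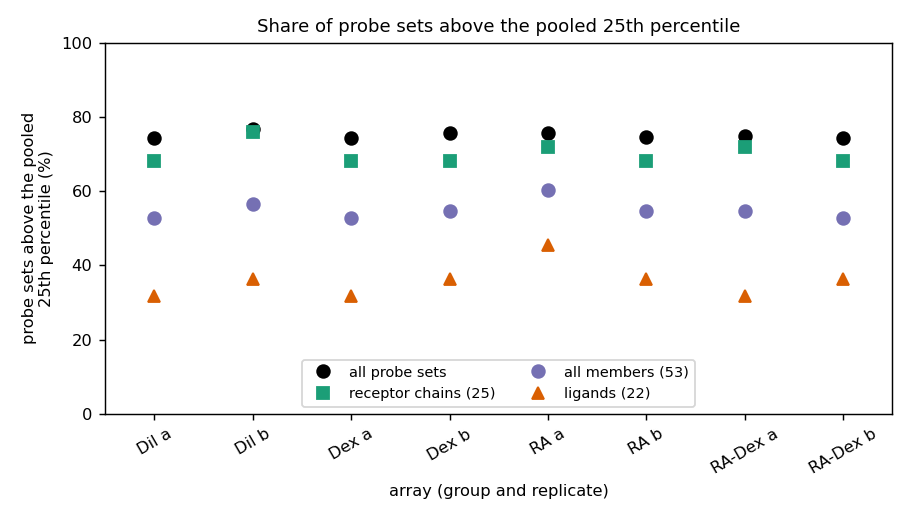
Percent of probe sets above the pooled 25th percentile (vertical axis) on each of the 8 arrays, for all probe sets, the 53 members, the 25 receptor probe sets and the 22 ligand probe sets. On every array the ligands (31.8% to 45.5%) lie below the receptor chains (68% to 76%), and no group of arrays stands apart.

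Above the floor on all 8 arrays were 19 of the 53 members (35.8%, against 61.1% of all probe sets). They were 2 of 22 ligand, 15 of 25 receptor and 2 of 6 inhibitor probe sets. The 2 ligands were Il16, which acts through CD4, and Il9, a growth factor of T cells and mast cells. Il16 read 342 and 270.5 in Dil, 303 and 424 in Dex, 359 and 339 in RA, and 303 and 375 in RA-Dex. Il9 ranged from 169 to 431, and its lowest array, in RA, had a replicate at 396. The 15 receptor probe sets were those of Il10rb, Il13ra1, Il15ra, Il18r1, Il1r1, Il27ra, Il3ra, Il6ra and Il7r and both probe sets each of Il17ra, Il4ra and Il6st. The 2 inhibitor probe sets were those of the antagonist Il1rn and 1 of 2 for the decoy receptor Il1r2.

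At or under the floor on all 8 arrays were 13 members (24.5%, against 10.3% of all probe sets). Among ligands these were Il2, Il6, Il11, Il12a, Il15 and 2 of 4 probe sets of Il4, and among receptors and inhibitors Il10ra, Il12rb2, Il5ra, Il9r, the binding protein Il18bp and 1 of 2 probe sets of Il12rb1. Il6, the ligand of the Il6ra chain, read 48.5 and 12.4 in Dil, 12.2 and 32.4 in Dex, 9.97 and 12.6 in RA, and 77.6 and 7.32 in RA-Dex. Il12a, a subunit of interleukin 12, read 29.95 and 76.8, 34.8 and 23.1, 22.9 and 32.6, and 19.0 and 38.6 in the same order of groups. Il15, a growth factor of NK and T cells, read 9.90 and 2.69, 3.35 and 76.7, 11.5 and 53.6, and 33.1 and 3.49. Il10ra, which binds interleukin 10, is the partner of Il10rb in that receptor. Its signals were 42.9 and 65.5 in Dil, 15.3 and 28.7 in Dex, 41.7 and 21.6 in RA, and 63.0 and 62.9 in RA-Dex. No fold change was drawn from these, since values at the floor have no order. The remaining 21 members were above the floor on some arrays only.

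Among these were Il1b, Il1a, Il18 and Il1rap. Il1b, the main inflammatory ligand of the interleukin 1 receptor, had signals of 133 and 147 in Dil, 60.3 and 24.3 in Dex, 106 and 247 in RA and 34.9 and 125 in RA-Dex. Il1a, its sister ligand, had 87.9 and 18.4 in Dil, 19.8 and 93.7 in Dex, 145 and 83.8 in RA, and 83.4 and 131 in RA-Dex. Both thus crossed the floor within a group, and replicates of Il1a differed as widely as the groups did. Il18, a ligand that macrophages and epithelium release, read 15.3 and 55.6 in Dil, 219.7 and 146 in Dex, 154 and 46.4 in RA, and 45.9 and 278 in RA-Dex, with the RA-Dex replicates almost as far apart as the lowest and highest arrays. Il1rap, the accessory chain of the interleukin 1 receptor, read 75.9 and 137 in Dil, 85.1 and 71.7 in Dex, 23.4 and 16.6 in RA, and 91.9 and 71.1 in RA-Dex, so 1 array of Dil and 1 of RA-Dex were above the floor. Il7r, the receptor chain of interleukin 7 on lymphocytes, read 91.8 and 139 in Dil, 118 and 193 in Dex, 151 and 123 in RA, and 161 and 96.4 in RA-Dex, low but above the floor throughout.

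**Figure D2:**
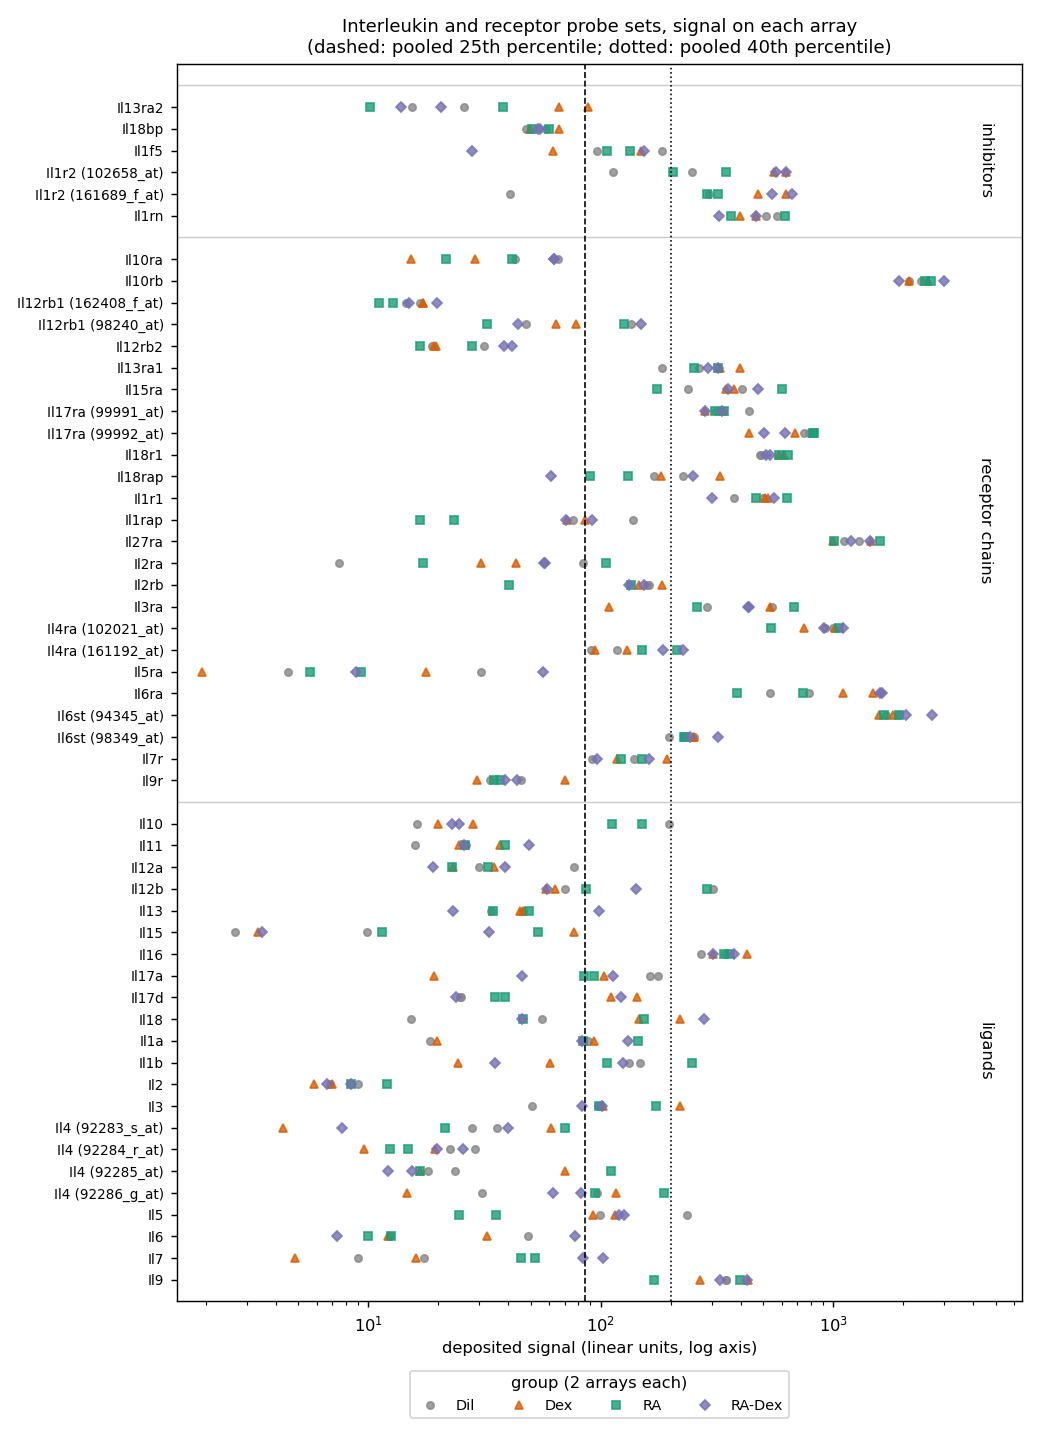
Deposited signal (horizontal log axis, linear units) of each of the 53 members on each of the 8 arrays, with a row for each probe set, sorted by name within ligands, receptor chains and inhibitors, and a symbol for each group. The dashed line is the floor of 85.3 and the dotted line the pooled 40th percentile of 200.8. Il1r2 and Il6ra have the dexamethasone symbols to the right of the others.

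Testing required a mean log2 signal that exceeded the pooled 40th percentile, 200.8, which 18 members of 15 genes passed. They comprised 2 ligand, 13 receptor and 3 inhibitor probe sets, which is 34.0% of the members against 58.8% of all probe sets. Nearest the limit were Il6st (probe set 98349_at), with a mean signal of 244, above it and Il18rap, with 166, below it. Il1r2 is the case to keep in mind, because for both of its probe sets the Dil mean, and no other group mean, lay under the limit. It passed through the other groups, of which RA had no dexamethasone.

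The main comparison asked what dexamethasone changed, averaged over the day 3 treatment. The decoy receptor Il1r2, which binds interleukin 1 and cannot signal, rose 2.82-fold, and Il6ra, the chain that binds interleukin 6, rose 2.44-fold. The 3 probe sets of these 2 genes were the members that passed in limma, all as rises, where 7.83% of all 7309 tested probe sets passed, 4.26% as rises and 3.57% as falls. In the same sense 3 of the 18 tested members had all 4 dexamethasone arrays above all 4 others, against 6.8% of tested probe sets, and 1 member, a probe set of Il17ra, had them all below, against 7.78%. The median log2 fold change of the 18 was 0.11, with 12 above 0 and 6 below, and that of all tested probe sets was -0.03.

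Il1r2 is represented by 2 probe sets of 1 gene, which are not independent of each other. On 102658_at its signals were 247 and 112 in Dil, 628 and 557 in Dex, 204 and 345 in RA, and 568 and 623 in RA-Dex. All 4 arrays with dexamethasone were thus above all 4 without it, whichever treatment came before. The log2 fold change was 1.496 ± 0.281 (SE, n = 4 against 4, adjusted p = 0.00783 in limma). On 161689_f_at the signals were 293 and 40.5 in Dil, 626 and 472 in Dex, 285 and 320.0 in RA, and 545 and 663 in RA-Dex. Again the groups with and without dexamethasone did not overlap, and the size depends on the floor, which replaced the value of Dil replicate b. The log2 fold change was 1.39 ± 0.338 (adjusted p = 0.0299). This second call was lost with no intensity trend (adjusted p = 0.0693) and on leaving out Dex a (0.108), Dex b (0.0635), RA a (0.0707), RA b (0.0578), RA-Dex a (0.0774) or RA-Dex b (0.130), the letters being the replicates.

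Il6ra had signals of 533 and 785 in Dil, 1096 and 1474 in Dex, 739 and 383 in RA, and 1592 and 1620.4 in RA-Dex. The lowest array with dexamethasone was above the highest without it. The log2 fold change was 1.28 ± 0.218 (adjusted p = 0.00451 in limma). Without both Dil arrays, in which muscle markers were high, the mean of Dex and RA-Dex was compared with RA alone. That comparison is not averaged over the day 3 treatment, because Dex and RA differ in retinoic acid as well. In it the 3 probe sets passed in limma, where 377 of all 7316 tested did. The values were 1.16 (adjusted p = 0.0255) and 0.92 (0.0422) for Il1r2 and 1.42 (0.00937) for Il6ra. With no filter on dim probe sets none of the 3 passed (adjusted p = 0.117, 0.241 and 0.109, at unadjusted p = 0.00681, 0.0255 and 0.0058), and 0 of 53 members were called in limma, where 2.81% of all 12422 probe sets were. An unadjusted p under 0.05 was reached by 6 of the 53. The share over all probe sets was not counted in that fit, so the 6 are not read as a result about the members. In the fit with the filter 4 of the 18 tested members and 21.3% of all tested probe sets had an unadjusted p under 0.05.

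**Figure D3:**
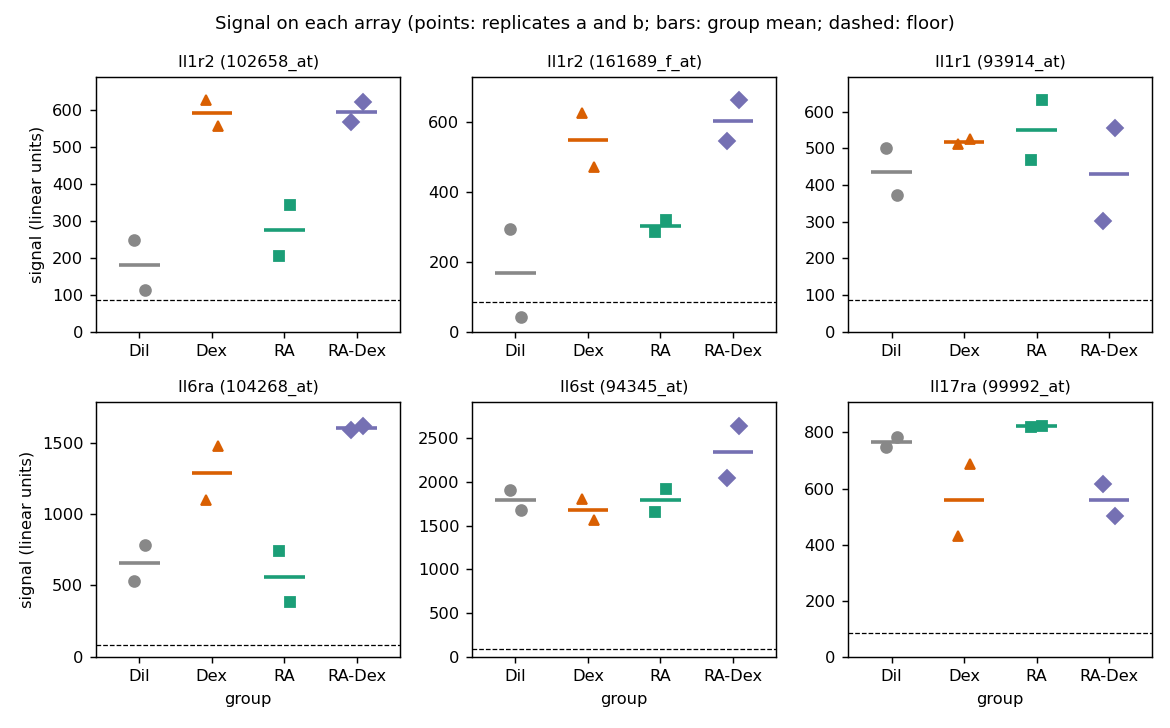
Signal on each array (points, replicates a and b) and group mean (bars) of 6 receptor and decoy probe sets, on linear axes that start at 0, with the floor dashed. Both Il1r2 probe sets and Il6ra are higher on all 4 dexamethasone arrays, Il17ra (99992_at) is lower on them, and the Il1r1 and Il6st signals overlap.

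Neither Il1r1 nor Il6st, the signalling partner of Il6ra, passed. Il1r1, the receptor through which interleukin 1 signals, had 500.2 and 373 in Dil, 510.2 and 524 in Dex, 467 and 631 in RA, and 302 and 556 in RA-Dex. Its log2 fold change of -0.07 ± 0.226 had a 95% interval of -0.57 to 0.43 (adjusted p = 0.902 in limma), and its sign turned when single arrays were left out. Set against Il1r1 on the same array, the Il1r2 probe set 102658_at was lower by 0.87 to 1.73 on the log2 scale on the 4 arrays without dexamethasone, and higher by 0.09 to 0.91 on the 4 with it, a shift of 1.57 in the difference that shows unequal change of the pair and not which is more abundant. With 161689_f_at the shift was 1.46, and the difference from Il1r1 was -0.15 on Dex replicate b and 0.25 to 0.85 on the other 3 dexamethasone arrays, so the sign did not turn on all 4. Il6st, the signalling chain shared by interleukin 6 and its relatives, had signals on 94345_at of 1910.2 and 1676 in Dil, 1801 and 1566 in Dex, 1658 and 1915 in RA, and 2046 and 2643 in RA-Dex. Its log2 fold change was 0.15 ± 0.131, with an interval of -0.14 to 0.44 (adjusted p = 0.594), and its second probe set, 98349_at, read 197 and 250.4, 249 and 253, 228 and 229.6, and 320.2 and 241 in the same groups, at 0.23 ± 0.252 (adjusted p = 0.682). The difference of Il6ra from Il6st (94345_at) moved by 1.14 between arrays without and with dexamethasone.

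Il1r2 and Il6ra were the members that rose, and the stretches before their transcription starts are given so that the letters can be read beside that result. They come from RefSeq (assembly GRCm38.p6) and cover the 250 bases before the annotated start, read 5′ to 3′ on the gene's strand. Il1r2 lies at chr1:40085843-40086092 on the + strand and Il6ra at chr3:89913197-89913446 on the - strand. The second annotated start of Il1r1, at chr1:40266336-40266585 on the + strand, is shown for contrast, with a match to a searched motif in capitals.
Il1r2: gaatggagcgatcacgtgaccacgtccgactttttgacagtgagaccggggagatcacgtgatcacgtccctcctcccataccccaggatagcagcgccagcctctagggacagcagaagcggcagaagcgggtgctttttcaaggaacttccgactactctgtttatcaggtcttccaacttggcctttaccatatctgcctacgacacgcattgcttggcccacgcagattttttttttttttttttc
Il6ra: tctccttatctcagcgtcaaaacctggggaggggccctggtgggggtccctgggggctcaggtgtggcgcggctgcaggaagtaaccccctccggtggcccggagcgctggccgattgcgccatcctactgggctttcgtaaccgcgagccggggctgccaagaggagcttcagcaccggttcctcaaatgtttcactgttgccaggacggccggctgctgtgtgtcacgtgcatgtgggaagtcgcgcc
Il1r1: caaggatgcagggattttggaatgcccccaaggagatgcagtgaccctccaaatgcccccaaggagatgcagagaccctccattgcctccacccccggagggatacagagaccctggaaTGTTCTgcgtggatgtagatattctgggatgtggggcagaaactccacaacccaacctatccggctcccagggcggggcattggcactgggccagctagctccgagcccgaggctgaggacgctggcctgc

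The motifs searched, on both strands, were ACANNNTGT, the palindromic core bound by the glucocorticoid receptor, TGTTCT, its half-site, and AGGTCA, the half-site of retinoic acid receptors and many other nuclear receptors, and no match of one overlapped another in the windows shown. The windows of Il1r2, Il6ra and Il6st held 0 matches to any of them. The second start of Il1r1 held 1 match to TGTTCT, 126 to 131 bases before the start, and its first start held none. Of all 32851 windows of that length, 5.84% held ACANNNTGT, 16.1% TGTTCT and 14% AGGTCA, and of the 48 windows of the 36 member genes that the RefSeq promoters cover, the shares were 6.25%, 10.4% and 8.33%. A missing match says only that these letters are not in this window.

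Of the other tested inhibitor and receptor probe sets, 0 passed for averaged dexamethasone. Il1rn, the antagonist that occupies the interleukin 1 receptor, had 513 and 573 in Dil, 398 and 463 in Dex, 617 and 363 in RA, and 465 and 324 in RA-Dex, with a log2 fold change of -0.31 ± 0.217 (adjusted p = 0.473). Its arrays with and without dexamethasone overlapped, so of the 2 measured brakes on interleukin 1 one passed as a rise and the other did not pass. Il17ra, the chain shared by receptors of the interleukin 17 family, had on 99992_at 748 and 784 in Dil, 432 and 686 in Dex, 821 and 825 in RA, and 617 and 501 in RA-Dex. All dexamethasone arrays were lower, at -0.53 ± 0.175, which did not pass (adjusted p = 0.101 in limma, and 0.048 without Dex replicate b). Its other probe set, 99991_at, read 313 and 432, 282 and 336, 339.8 and 309, and 279.9 and 333 in the same groups and overlapped between the arms, at -0.17 ± 0.216 (adjusted p = 0.728), so the 2 probe sets share the sign and not the size. Il17a, a ligand of this receptor whose gene is named here after its values were seen, read 162 and 177 in Dil and between 19.2 and 112 on the 6 other arrays, and was below the filter.

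Il4ra and Il13ra1 together form a receptor for interleukins 4 and 13. Il13ra1 had 265 and 184 in Dil, 327 and 398 in Dex, 318 and 251 in RA, and 288 and 320.4 in RA-Dex. Both Dex arrays were above all 6 others by a small margin, and the averaged log2 fold change of 0.41 ± 0.238 did not pass (adjusted p = 0.374). Il4ra on 102021_at had 921 and 997 in Dil, 1017 and 745 in Dex, 542 and 1055 in RA, and 1102 and 911 in RA-Dex, at 0.13 ± 0.209 (adjusted p = 0.793). Its replicates in RA lay further apart than any group means.

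For Il10rb, a chain shared by receptors for interleukins 10 and 22, the signals were 2370.0 and 2123 in Dil, 2550.2 and 2105 in Dex, 2471 and 2636 in RA, and 1918 and 2982 in RA-Dex. Its log2 fold change of -0.02 ± 0.149 had an interval of -0.35 to 0.31 (adjusted p = 0.955). Il18r1, the binding chain for interleukin 18, had 486 and 487 in Dil, 613 and 586 in Dex, 638 and 581 in RA, and 513 and 535 in RA-Dex, so that both Dil arrays were below all others, as both RA-Dex arrays were below the Dex and RA arrays. The averaged value was 0.04 ± 0.147 (adjusted p = 0.916). In the gene order of assembly GRCm38.p6 on chromosome 1, Il1r2 is followed by Il1r1, Il1rl2, Il1rl1, Il18r1 and Il18rap, and of the 3 tested members of that row Il1r2 passed and Il1r1 and Il18r1 did not.

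Il15ra, which presents interleukin 15 to neighbouring cells, read 407 and 238 in Dil, 374 and 346 in Dex, 174 and 603 in RA and 351 and 472 in RA-Dex (0.27 ± 0.358, adjusted p = 0.745). Il3ra, the binding chain for interleukin 3, read 287 and 547 in Dil, 533 and 109 in Dex, 674 and 259 in RA and 429 and 434 in RA-Dex (-0.34 ± 0.470, adjusted p = 0.760). For both the replicates of RA differed by more than any group means, and a change of moderate size was not detectable with this spread. The last tested members were Il27ra at 0.02 ± 0.182, Il16 at 0.09 ± 0.216 and Il9 at 0.25 ± 0.296, with adjusted p from 0.708 to 0.966.

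**Figure D4:**
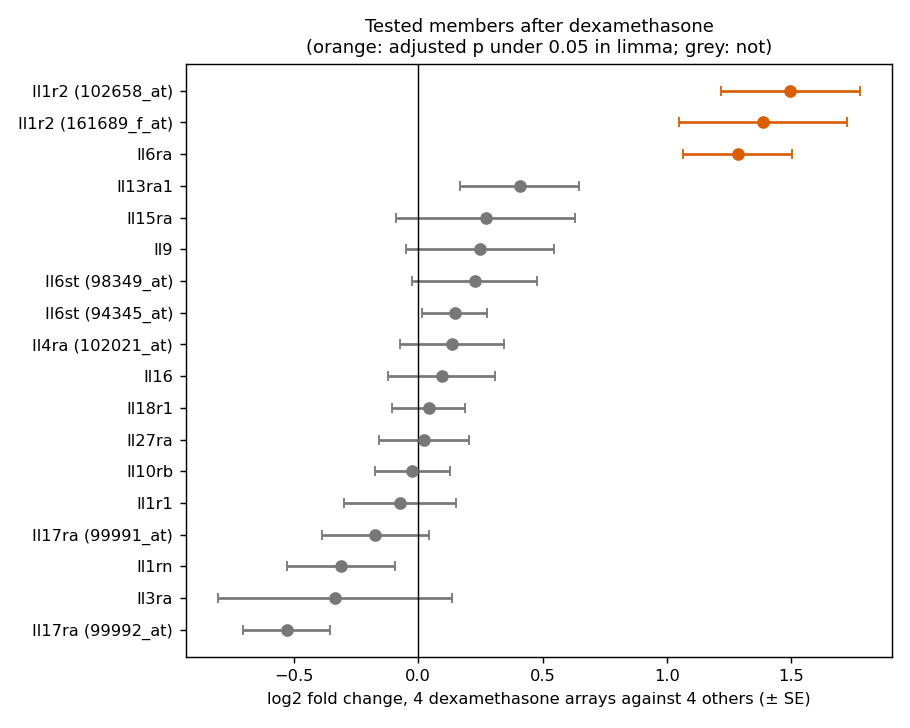
Log2 fold change (horizontal axis, ± SE) of the 18 tested members between the 4 arrays with dexamethasone and the 4 without. The 3 probe sets of Il1r2 and Il6ra lie between 1.28 and 1.496 and passed in limma, and the other 15 lie between -0.53 and 0.41 and did not.

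The next comparisons asked for the effect of dexamethasone without and after retinoic acid, 2 arrays against 2. In Dex against Dil, Il1r2 (102658_at) rose 3.55-fold (log2 fold change 1.83 ± 0.397, adjusted p = 0.0325 in limma), and 1 of 18 members passed, where 3.23% of all tested probe sets passed and 2% rose. The call was lost with the replicate block (adjusted p = 0.0569), with no intensity trend (0.0725), with no filter (0.245) and on leaving out Dil b (1.26, adjusted p = 0.172), Dex a (1.74, 0.199), Dex b (1.91, 0.14), RA-Dex a (0.0711) or RA-Dex b (0.0706). The other Il1r2 probe set, at 1.78 ± 0.478, did not pass (adjusted p = 0.0783), but did without Dil replicate a (2.67, adjusted p = 0.00418). Without Dil replicate b, whose value was under the floor, it was 0.89 (adjusted p = 0.306), so its size rests on which Dil array is kept. Il6ra, at 0.97 ± 0.308, did not pass (adjusted p = 0.138), but did without RA replicate b (adjusted p = 0.0496). Il13ra1 had a value of 0.71 ± 0.336 (adjusted p = 0.369).

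In RA-Dex against RA it was Il6ra that passed, with a 3.02-fold rise (log2 fold change 1.59 ± 0.308, adjusted p = 0.0177 in limma), again 1 of 18 members, where 3.5% of all tested probe sets passed and 2.28% rose. That call was lost with no intensity trend (adjusted p = 0.0723), with no filter (0.199) and on leaving out RA b (1.12, adjusted p = 0.072), RA-Dex a (1.61, 0.124) or RA-Dex b (1.58, 0.146). Il1r2 had values of 1.17 ± 0.397 (adjusted p = 0.169) and 0.99 ± 0.478 (0.351) on its 2 probe sets. Il17ra (99992_at) had -0.57 ± 0.248 (adjusted p = 0.298) and Il6st (94345_at) 0.38 ± 0.185 (0.351).

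The effects without and after retinoic acid were not shown to differ for either gene. The interaction was -0.66 ± 0.562 for Il1r2 (102658_at), with an interval of -1.90 to 0.58 (adjusted p = 0.918 in limma), and 0.62 ± 0.436 for Il6ra, with an interval of -0.34 to 1.58 (adjusted p = 0.898). These intervals are wide and do not show that the effects were alike. For Il6st (94345_at) the interaction was 0.48 ± 0.262, for Il18r1 -0.52 ± 0.293 and for Il1r1 -0.67 ± 0.452, each with an adjusted p of 0.898. In limma 0 of the 18 members passed the interaction, where 0.0137% of all tested probe sets passed. An unadjusted p under 0.05 was reached by 0 of the 18 and by 5.6% of all tested probe sets.

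**Figure D5:**
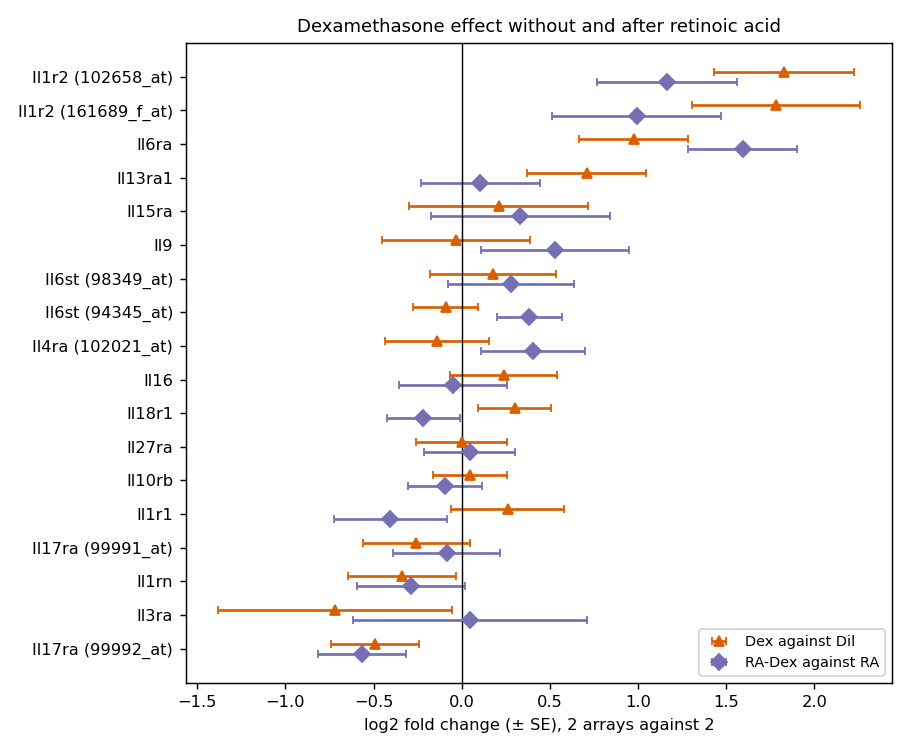
Log2 fold change (horizontal axis, ± SE) of the 18 tested members in Dex against Dil (triangles) and in RA-Dex against RA (diamonds), 2 arrays against 2. Il1r2 lies further right without retinoic acid (1.83 and 1.78 against 1.17 and 0.99) and Il6ra after it (1.59 against 0.97), with error bars that leave neither difference past the test.

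The last comparisons asked what retinoic acid changed. Averaged over the day 4 treatment, 0 of 18 members passed in limma, where 0.15% of all tested probe sets passed. An unadjusted p under 0.05 was reached by 0 of the 18 and by 6.29% of all tested probe sets. The smallest p was that of Il6st (94345_at), at 0.23 ± 0.131 (adjusted p = 0.835), and the median of the 18 was 0.07 against 4.65e-05 for all tested probe sets. Il1r2 had 0.34 ± 0.281 (adjusted p = 0.937) and 0.54 ± 0.338 (0.877), and Il6ra had 0.03 ± 0.218, with an interval of -0.45 to 0.51 (adjusted p = 0.993). In RA against Dil 0 of the 18 tested members passed in limma, where 0.0274% of all tested probe sets passed. With an unadjusted p under 0.05 were 0 of the 18 and 7.99% of all tested probe sets. The largest value there was Il1r2 on 161689_f_at at 0.94 ± 0.478 (adjusted p = 0.667), and on 102658_at it was 0.67 ± 0.397 (0.726).

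In RA-Dex against Dex, which asks what earlier retinoic acid changed in dexamethasone-treated lung, 0 of the 18 tested members passed in limma, where 0.0958% of all tested probe sets did. Il1r2 was not shown to differ between these groups, at 0.01 ± 0.397 on 102658_at, with an interval of -0.87 to 0.89. On 161689_f_at it had 0.15 ± 0.478, with an interval of -0.91 to 1.20. Il6ra had 0.34 ± 0.308, with an interval of -0.34 to 1.02 (adjusted p = 0.9998 for each in limma). These intervals are too wide to show equal levels. Il6st (94345_at), whose RA-Dex arrays were both above all 6 others, had 0.47 ± 0.185 (adjusted p = 0.9998), and Il3ra had 0.84 ± 0.664. Il6st was the only one of the 18 tested members with an unadjusted p under 0.05, which 4.13% of all tested probe sets had. Single groups that stood apart from all 6 other arrays were counted among the 53 members. The 13 members at or under the floor on every array could not stand apart, which lowers the counts. Members apart were 2 for Dil (Il17a above, Il18r1 below), 1 for Dex (Il13ra1 above), 2 for RA (Il17ra on 99992_at above, Il5 below) and 2 for RA-Dex (Il6ra and Il6st above). Of all probe sets 8.21%, 5.86%, 7.97% and 7.39% stood apart in either direction.

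Below the filter, and chosen after its values were seen, the second probe set of Il4ra, 161192_at, read 118 and 90.4 in Dil, 129 and 94.6 in Dex, 213 and 150.3 in RA, and 186 and 225 in RA-Dex. All 4 retinoic acid arrays were above the 4 others, which held for 1 of 53 members and for 0.66% of all probe sets. With no filter its averaged log2 fold change was 0.84 ± 0.191 (adjusted p = 0.452 in limma), while Il4ra on 102021_at had -0.07 ± 0.209. In RA-Dex against Dex, with no filter, 161192_at had 0.89 ± 0.270 (adjusted p = 0.862 in limma), and 2 of the 53 members, this one and Il6st, had an unadjusted p under 0.05. The share over all probe sets was not counted in that fit, so the 2 are not read as a result about the members. Il5, the growth factor of eosinophils, also chosen after its values were seen, read 24.5 and 35.6 in RA and 92.2 to 236 on the other 6 arrays.

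Genes that carry interleukin signals but are not named for them were counted by list. For averaged dexamethasone 4.26% of all tested probe sets passed as rises and 3.57% as falls. Of 14 tested genes of the JAK-STAT pathway, through which most of these receptors signal, 0 rose and 1 fell with dexamethasone, averaged over day 3 treatments. It was Socs1, an inhibitor that the pathway itself induces (log2 fold change -0.90 ± 0.214, adjusted p = 0.0273 in limma). The median of the list was -0.01, against -0.03 for all tested probe sets. Of 13 tested genes of interleukin 1, interleukin 18 and Toll receptor signalling, Nfkbia, which holds NF-kappaB in the cytoplasm, rose (1.37 ± 0.130, adjusted p = 7.9e-05) and 0 fell, with a median of -0.05.

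Of 10 tested cytokines and receptors that share chains or family with the interleukins, 0 rose and 2 fell with dexamethasone, with a median of -0.27. These were Csf1, the growth factor of macrophages (-0.74 ± 0.139, adjusted p = 0.0083), and its receptor Csf1r (-0.59 ± 0.134, adjusted p = 0.0219). Of 9 tested other inflammatory cytokine genes, 1 rose and 2 fell, with a median of -0.26. Ifngr1, a chain of the interferon gamma receptor, rose (0.69 ± 0.129, adjusted p = 0.0077), and Ltb, lymphotoxin beta of lymphocytes (-1.41 ± 0.205, adjusted p = 0.00167), and Tnfrsf1b, a receptor of tumour necrosis factor (-0.66 ± 0.166, adjusted p = 0.0339), fell. In limma 0 genes of these 4 lists passed the averaged retinoic acid comparison.

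Il1r2 and Il6ra are carried by several blood cells, so the leukocyte markers stand beside their rises. The shares over all tested probe sets were again 4.26% as rises and 3.57% as falls. While both rose, 6 of 8 tested general leukocyte markers fell with dexamethasone and 0 rose, led by Cd52 (-1.32 ± 0.137, adjusted p = 0.000172 in limma), and the median of the list was -0.80. Of 8 tested macrophage markers 2 fell (median -0.48), of 7 tested B cell markers 3 fell (median -0.55), and of 2 tested T and NK cell markers 0 passed (median -0.28). Neutrophils are a known source of Il1r2. Of 10 neutrophil markers all were above the floor on all 8 arrays. Their summed signal was 9813 to 12400 with dexamethasone and 7281 to 11362 without, and Lcn2 alone ranged from 1964 to 6015 over the arrays. Of the 8 tested Lcn2 rose (1.02 ± 0.107) while the median was -0.08. The others did not pass, with Ltf at -0.97, S100a9 -0.65, S100a8 -0.39, Csf3r -0.20, Camp 0.03, Ngp 0.19 and Elane 0.41. Of 5 tested mast cell and basophil markers Gata2 rose (0.63 ± 0.114), while Cma1 had -0.26, Tpsb2 -0.18, Hdc -0.38 and Kit 0.09, none of which passed. The part of these cells in the values of Il1r2 and Il6ra was not tested.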

How the data were processed

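The members and gene lists were chosen with earlier results of these data known. The deposited values are linear intensity signals, 1 per probe set and array. No source used here names the scanner software. Means trimmed by 2% at each end agreed between arrays within a ratio of 1.00004, so no further scaling was applied. Of 12488 probe sets, 66 controls were left out. Signals were floored at 85.3 and taken as log2. Symbols came from the array's annotation, and all 53 members matched a current gene by Entrez ID. Il1rl1, Il11ra1 and Il2rg, meant to be described, had no probe set of their own symbol here.

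The 7309 probe sets above the filter were fitted with 1 mean per group (limma 3.58.1, R 4.3.3, eBayes with an intensity trend, two-sided, 4 residual and 6.69 prior degrees of freedom) in 7 contrasts. Benjamini-Hochberg adjustment was made within each contrast, over all probe sets tested. Calls required an adjusted p below 0.05. The contrasts share arrays. Errors are SE of the fit. The fit was tested on simulated data with effects placed only in probe sets well above the filter. That test does not cover probe sets as dim as those of Il1r2.

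Named were members called in a contrast, the 3 of smallest p in each, those with a group apart from all other arrays by 1 on the log2 scale, and a fixed set. A list gene was represented by its brightest tested probe set, and at most 5 called genes of a list were named. Alternatives changed the scaling, filter, floor, variance model, replicate block and arrays used.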

Additional observations from a re-analysis of the deposited data

How the results depend on the processing

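Of 5 member calls, 0 changed sign under the alternatives run, and quantile and cyclic loess normalization, the pseudocount and the robust model kept every count of called members. With no filter the members called were 0 for averaged dexamethasone, 0 in Dex against Dil and 0 in RA-Dex against RA, and the cause was not tested. With the stricter filter 7 members were tested, without Il1r2, and the counts were 1 for averaged dexamethasone and 0 in Dex against Dil. Of all 4908 probe sets tested with that filter, 563 were called for averaged dexamethasone, against 572 of 7309 in the main fit. With no intensity trend the counts were 0 in Dex against Dil and 0 in RA-Dex against RA. With the replicate letter as a block, the count in Dex against Dil was 0, the averaged dexamethasone count stayed at 3 and no other count changed. The differences between a and b correlated at -0.22 to 0.14 between groups. Correlations of this kind cannot tell whether the letters mark a shared batch, and no label says what they mean. Without single arrays, the counts were 2 to 3 for averaged dexamethasone, 0 to 2 in Dex against Dil and 0 to 1 in RA-Dex against RA. Above the pooled 40th percentile, in place of the floor, were 35.1% of the members. By definition 40% of all signals of the series lie at or under that level. Of 18 uncalled values followed through the alternatives, 7 turned sign. Without single arrays, averaged dexamethasone values ran from -0.18 to 0.14 for Il10rb, -0.18 to 0.72 for Il15ra, -0.027 to 0.21 for Il16, -0.29 to 0.15 for Il1r1, -0.91 to 0.24 for Il3ra and -0.11 to 0.37 for Il4ra. Without both Dil arrays, chosen after seeing the data and with RA as the only group without dexamethasone, Il16 had -0.0044 and Il18r1 -0.12. The signal over the floor limits what could be tested, since 35 members lay below the filter.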
